A study of Mus musculus with 6 samples.

Results

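The noncoding RNA genes Meg3, Rian, Mirg, Malat1, Neat1, Miat and Snhg11, were followed in the hippocampus of sham and BCAS mice. They were matched by symbol through the Ensembl identifiers of the count tables, 7 of 54752 genes, and all 7 passed the filter on low counts that left 18617 genes for testing. The libraries came from the entire right hippocampus of male C57BL/6 J mice, labelled as WT C57BL/6 and 14 weeks. There were 3 per group, sampled 3 weeks after surgery. BCAS (bilateral carotid artery stenosis) narrows each common carotid artery with a microcoil, the tighter coil on the right, and lowers blood flow to the brain for weeks. Sham mice underwent the same surgery but received no coil, and no group carried an engineered allele or a drug. Only mice that survived the operation could be sampled, and the model gives a whole-tissue measurement in which every hippocampal cell type is mixed. The libraries held 29652456 to 35607098 counted reads, with mates of a pair counted separately, and the mitochondrial share of them was 6.90% to 6.99% with sham surgery and 6.02% to 6.56% after BCAS. Levels are CPM, the usual depth-scaled read counts, on library totals adjusted by the TMM method, which corrects the totals for differences in composition. All 16 neuron markers and all 14 microglia and macrophage markers on the lists were detected.

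Meg3, Rian and Mirg lie in the imprinted Dlk1-Dio3 domain, where the noncoding RNAs are read from the chromosome inherited from the mother and are known mainly from neurons. Rian carries box C/D snoRNAs and microRNAs in its length, and Mirg carries a long microRNA cluster. Malat1 and Neat1 are nuclear neighbours on another chromosome: Malat1 RNA gathers in nuclear speckles, which store splicing factors, and the long form of Neat1 is the scaffold around which paraspeckle proteins assemble. Miat is a nuclear RNA of neurons that binds splicing factors, and Snhg11 is a neuronal host transcript of snoRNAs. The comparison asks whether the imprinted neuronal RNAs behaved like the pair of nuclear body RNAs after hypoperfusion.

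The ends of 3 transcripts show what a Neat1 or Malat1 count contains. The sequences are from the GENCODE vM21 transcripts (GRCm38, the build of the counts), 100 bases each, all on the minus strand. Neat1-202, the short form of 3004 bases, is shown to its last base at chr19:5842307-5842406 because it ends at an ordinary polyadenylation signal, AATAAA, in capitals. Neat1-201, the long form of 20771 bases, is shown to its last base at chr19:5824708-5824807, and Malat1-201 at chr19:5795982-5796081, which ends 292 bases before the annotated transcript end. Both of these carry a U-rich motif (first capitals) and an A-rich tract (last capitals), which are known to fold into a triple helix that protects an end made without polyadenylation.
Neat1-202: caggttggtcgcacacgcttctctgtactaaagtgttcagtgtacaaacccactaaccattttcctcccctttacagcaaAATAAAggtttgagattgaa
Neat1-201: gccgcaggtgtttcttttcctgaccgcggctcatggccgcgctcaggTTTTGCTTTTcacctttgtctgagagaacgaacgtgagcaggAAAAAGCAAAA
Malat1-201: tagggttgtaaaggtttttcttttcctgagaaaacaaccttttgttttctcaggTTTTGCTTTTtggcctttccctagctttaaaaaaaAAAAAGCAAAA
The short form has neither motif in its last 100 bases, while each of the other stretches has 1 of each. Reads were counted per gene, so the Neat1 values below add both forms, and how far each form contributed cannot be told apart. Whether the libraries selected polyadenylated RNA is not given in the sources used here.

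RefSeq gives 2 promoter windows for Meg3, and the more upstream of them is printed here because Rian and Mirg lie downstream of it on the same strand and are compared with Meg3 below. The window (GRCm38.p6, chr12:109540746-109541045, plus strand) runs 250 bases before to 50 after the first transcribed base. Capitals mark the cAMP response element TGACGTCA, which begins at position -57, and an overlapping run of TATA box letters, TATAAA on both strands, which begins at -29. The other window (chr12:109545148-109545447, plus strand) holds 0 matches to either motif.
Meg3 promoter: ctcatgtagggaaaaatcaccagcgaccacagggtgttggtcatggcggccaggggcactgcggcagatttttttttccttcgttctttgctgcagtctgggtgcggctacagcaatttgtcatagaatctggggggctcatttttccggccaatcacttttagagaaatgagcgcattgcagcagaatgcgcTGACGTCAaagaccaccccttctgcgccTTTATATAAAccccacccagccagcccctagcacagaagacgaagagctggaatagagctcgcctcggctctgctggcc
Searched on both strands, TGACGTCA occurred in 1.79% and TATAAA in 13.6% of the 32851 promoter windows of 300 bases. These matches describe letters and not occupied sites.

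Mature microRNAs within the hosts are shown because Rian and Mirg are known for carrying them. RefSeq (GRCm38.p6) placed 6 mature microRNAs inside Rian, 26 inside Mirg and 3 inside Meg3, all on chromosome 12. The 6 of Rian follow, with the seed (bases 2 to 8, which pair with target mRNAs) in capitals.
mmu-miR-341-5p: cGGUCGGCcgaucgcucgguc
mmu-miR-341-3p: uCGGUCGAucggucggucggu
mmu-miR-1188-5p: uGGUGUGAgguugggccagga
mmu-miR-1188-3p: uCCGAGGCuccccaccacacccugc
mmu-miR-370-5p: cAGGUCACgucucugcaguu
mmu-miR-370-3p: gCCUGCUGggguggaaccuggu
These have 6 different seeds. Within Mirg 25 seeds were found, because 1 seed, GGUUGCC, is shared by a pair of microRNAs, printed here with mmu-miR-134-5p, a microRNA known from dendrites.
mmu-miR-453: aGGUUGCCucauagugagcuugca
mmu-miR-496a-5p: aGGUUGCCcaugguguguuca
mmu-miR-134-5p: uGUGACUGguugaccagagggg
The libraries do not measure mature microRNAs, and nothing below is a value for them.

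Taking the members by level, the name abundant fits 6 of them and not Mirg. Together they took 0.351% of the counts in sham mice and 0.371% in BCAS mice, and the 2340 tested long noncoding RNA genes took 1.17% and 1.14%. By mean CPM Meg3 ranked 36 of 18617 tested genes and first among long noncoding RNA genes, Snhg11 ranked 64, Rian 186, Malat1 838, Neat1 845 and Miat 978, whereas Mirg ranked 10734. Per kilobase of exon, so that genes can be compared, Snhg11 was the highest in sham mice at 117 CPM per kilobase, followed by Meg3 at 80.5, Rian at 33.0, Malat1 at 30.2, Miat at 22.1, Neat1 at 5.77 and Mirg at 1.40. In this order the libraries of Rian and Malat1 overlapped, as did those of Malat1 and Miat. In BCAS mice the per-kilobase order was the same except that Malat1 at 30.0 stood above Rian at 24.7, their libraries again overlapping, with Snhg11 at 115, Meg3 at 82.4, Miat at 18.9, Neat1 at 14.4 and Mirg at 1.32. GENCODE vM21 classes Snhg11 as protein coding and RefSeq as a long noncoding RNA, so it has no rank among the former's long noncoding genes.

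**Figure D1:**
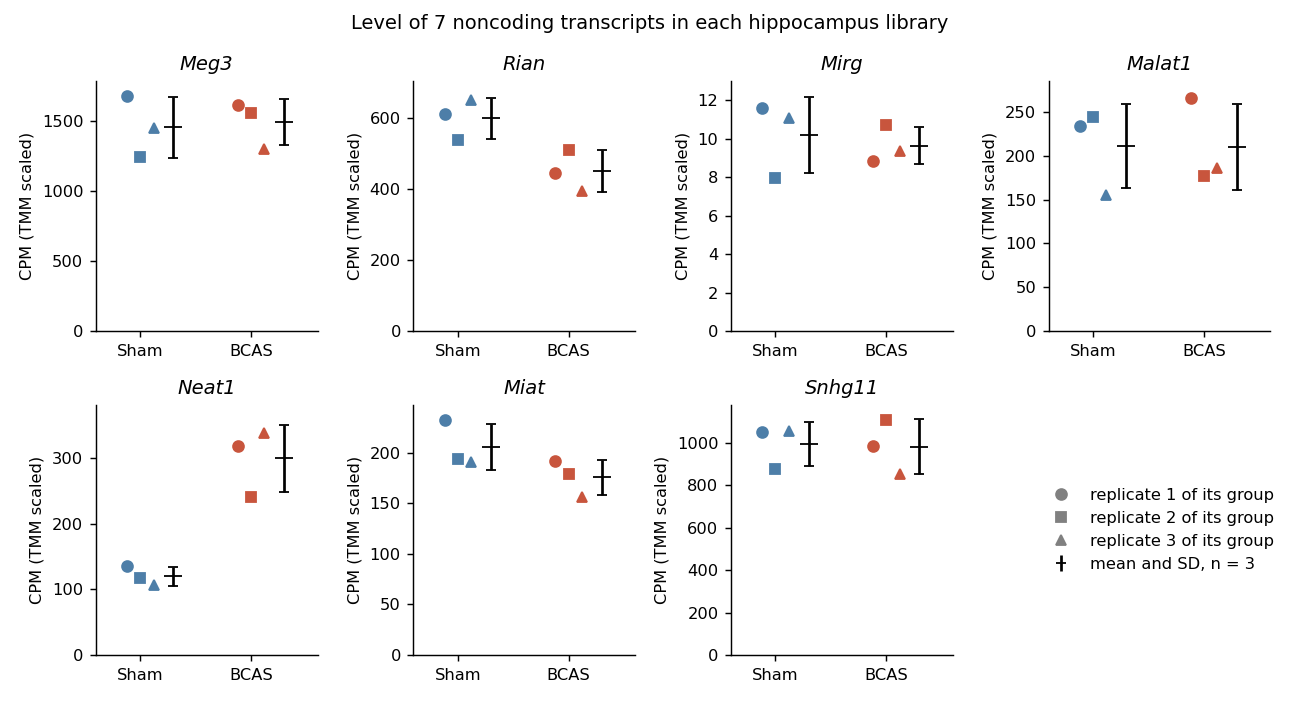
Level of each member in CPM (vertical axes, from 0) in the 3 sham and 3 BCAS libraries, with points for libraries and black bars for mean and SD (n = 3 per group). The BCAS points of Neat1 lie above all sham points, those of Rian lie below all sham points, and the groups overlap for the other 5 members.

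Neat1 was up-regulated 2.50-fold and Rian was down-regulated to 0.751 of its sham level, while Meg3, Mirg, Malat1, Miat and Snhg11 did not pass the test. A gene was called at an adjusted P under 0.05 in edgeR's quasi-likelihood test over all tested genes, and a DEG also needed an absolute log2 fold change above 1. Of the 7 members, 1 was called up and 1 down, beside 18.0% of all tested genes called up and 13.2% called down. Neat1 was the only DEG among them, beside 8.47% of all tested genes that were DEGs with a higher level in BCAS mice and 0.999% with a lower one. Among long noncoding RNA genes alone 5.56% were called up and 4.40% down, 4.44% were DEGs with a higher and 1.97% with a lower level, and their median log2 fold change was 0.005, beside 0.018 over all tested genes. Groups that did not overlap were found for 2 members, beside 48.0% of all tested genes, 25.3% with BCAS mice above and 22.7% with BCAS mice below.

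Neat1 RNA stood at 135, 118 and 107 CPM in sham mice 1 to 3 and at 319, 241 and 338 CPM in BCAS mice 1 to 3. The lowest BCAS library was well above the highest sham library. Its log2 fold change was 1.32 (SE 0.14, 95% interval 1.01 to 1.64, adjusted P = 2.02e-04 with edgeR), from 120 ± 14.2 CPM to 300 ± 51.5 CPM (SD, n = 3). The raw counts behind these values were 3669 to 4577 in sham and 7283 to 10568 in BCAS libraries, so counting error was small beside the spread between mice. Neat1 remained a DEG with each mouse left out in turn, with log2 fold changes of 1.22 to 1.45. Microglia and macrophage markers moved with it: 14 of 14 were up-regulated DEGs, with a median log2 fold change of 3.34, and their summed level went from 423 to 446 CPM in the sham libraries to a range of 3210 to 5252 CPM after BCAS. Of the astrocyte markers 8 of 9 were up-regulated, with a median of 0.66 and sums of 4572 to 4859 against 9627 to 10160 CPM. Endothelial and mural markers had 6 of 10 called up and 0 down, with sums of 537 to 617 against 695 to 778 CPM. Oligodendrocyte precursor markers had 2 of 5 called up and 0 down, with sums of 172 to 187 against 200 to 247 CPM. Oligodendrocyte markers had 0 of 9 called up and 0 down (1 up with DESeq2), with sums of 5315 to 6515 against 6048 to 9139 CPM. Of all tested genes 18.0% were called up and 13.2% down. The part of these cells in the Neat1 rise was not tested. In bulk tissue, more cells of a type and more RNA per cell cannot be told apart, and the same holds for fewer cells and less RNA.

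Malat1, the neighbour of Neat1 across a gap of 22.0 kb, stood at 234, 244 and 156 CPM in sham mice 1 to 3 and at 266, 177 and 186 CPM in BCAS mice 1 to 3. The highest and the lowest of the 6 values thus came from different groups, and the ranges overlapped. The difference was -0.01 on the log2 scale (SE 0.20, 95% interval -0.45 to 0.44, adjusted P = 0.981 with edgeR), an interval that leaves room for a moderate change either way. Malat1 varied more between mice than most genes of like level. Its coefficient of variation was 22.9% in sham and 23.3% in BCAS mice. That put it at percentiles 99.3 and 94.6 among genes within a factor of 2 of its level. Counting alone would give coefficients of 1.18% and 1.23%. The other members were also high on this percentile scale in sham mice, from 85.1 for Mirg to 95.5 for Neat1. In BCAS mice they ran from 36.5 for Mirg to 85.1 for Neat1. Markers of the choroid plexus and ependyma varied between libraries as well, with sums of 1006, 4100 and 87.9 CPM in sham mice 1 to 3 and 5956, 62.5 and 3249 CPM in BCAS mice 1 to 3. None of the 8 was at 0 in every library and 1 of 8 was called up, beside 18.0% of all tested genes. The number called up was 0 with limma-voom and without sham mouse 1, sham mouse 3, BCAS mouse 1 or BCAS mouse 3. It was 2 without BCAS mouse 2. Sham mouse 3 and BCAS mouse 2, lowest for these markers, were also lowest for Malat1 in their groups, and the part of this tissue in the Malat1 spread was not tested.

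Meg3, the most abundant of the imprinted RNAs, stood at 1678, 1242 and 1446 CPM in sham mice and at 1612, 1557 and 1302 CPM in BCAS mice. The groups overlapped, with both the highest and the lowest library in the sham group. The log2 difference was 0.03 (SE 0.15, 95% interval -0.30 to 0.37, adjusted P = 0.887 with edgeR).

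Rian stood at 611, 539 and 653 CPM in sham mice and at 446, 512 and 395 CPM in BCAS mice. Every BCAS library was below every sham library, but sham mouse 2 and BCAS mouse 2 were close. The log2 fold change was -0.41 (SE 0.12, 95% interval -0.69 to -0.14, adjusted P = 0.0301 with edgeR), short of the fold needed for a DEG. This call rested on few mice. It was kept without sham mouse 2 or BCAS mouse 2 (adjusted P = 0.0409 and 0.00727 with edgeR) and lost without sham mouse 1, sham mouse 3, BCAS mouse 1 or BCAS mouse 3 (adjusted P = 0.0941, 0.112, 0.0768 and 0.0574), with the log2 fold change at -0.52 to -0.33 throughout. The call was also lost with a block on replicate number, although these numbers did not pair the libraries.

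Mirg stood at 11.6, 7.95 and 11.1 CPM in sham mice and at 8.83, 10.7 and 9.39 CPM in BCAS mice, from 266 to 393 counts per library. All BCAS values lay inside the sham range. The log2 difference was -0.08 (SE 0.17, 95% interval -0.46 to 0.30, adjusted P = 0.746 with edgeR).

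Miat stood at 232, 194 and 191.1 CPM in sham mice and at 191.5, 179 and 157 CPM in BCAS mice. The groups touched at their edge, since BCAS mouse 1 and sham mouse 3 were nearly level. The log2 difference was -0.23 (SE 0.11, 95% interval -0.47 to 0.01, adjusted P = 0.135 with edgeR). Snhg11 stood at 1053, 876 and 1057 CPM in sham mice and at 984, 1110 and 853 CPM in BCAS mice. Its highest and lowest libraries were both from BCAS mice, and the log2 difference was -0.02 (SE 0.13, 95% interval -0.32 to 0.28, adjusted P = 0.930 with edgeR).

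**Figure D2:**
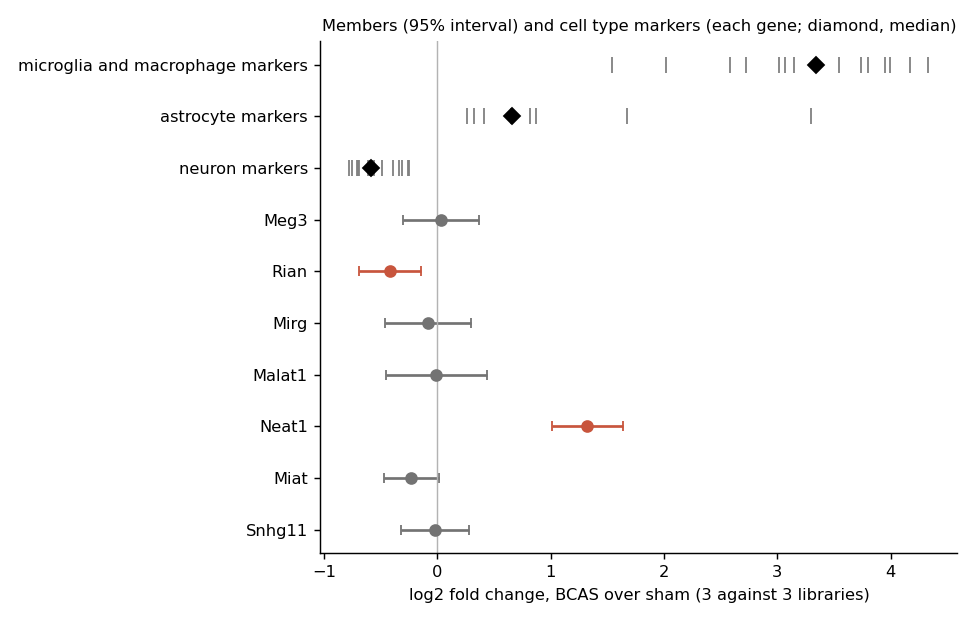
Log2 fold change of BCAS over sham (horizontal axis) for each member with its 95% interval, and for every neuron, astrocyte and microglia marker (ticks) with the list median (diamonds). Neat1 at 1.32 and Rian at -0.41, in red, passed the test, and the neuron marker median lay at -0.59.

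Ratios of counts inside a library do not depend on how libraries are scaled, and 7 of them were compared with an exact two-sided permutation test, for which 3 against 3 libraries cannot give a p below 0.1. The Neat1 to Malat1 ratio was 0.578, 0.482 and 0.687 in sham mice and 1.20, 1.36 and 1.82 in BCAS mice. Malat1 thus had more reads than Neat1 in every sham library and fewer in every BCAS library, without allowance for the greater length of Neat1. The log2 ratio went from -0.79 ± 0.26 to 0.52 ± 0.31 (SD, n = 3), a difference of 1.32 (exact permutation p = 0.1, 0.175 adjusted over 7 ratios). Neat1 to Meg3 rose likewise in 3 of 3 BCAS libraries above all sham libraries, by 1.28 on the log2 scale (exact permutation p = 0.1, adjusted 0.175). Meg3 to Malat1, the contrast of an imprinted RNA with a speckle RNA, differed by 0.04 (exact permutation p = 1), and its values of 5.10 to 9.30 in sham and 6.06 to 8.80 in BCAS mice overlapped. That difference was -0.18 without sham mouse 2 and 0.25 without sham mouse 3.

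Inside the imprinted cluster, Rian and Mirg were each set against Meg3. Rian to Meg3 was 0.364, 0.434 and 0.451 in sham mice and 0.277, 0.329 and 0.303 in BCAS mice. All 3 BCAS values were lower than all 3 sham values, with a log2 difference of -0.46 (exact permutation p = 0.1, adjusted 0.175). Mirg to Meg3 overlapped between the groups, with a log2 difference of -0.11 (exact permutation p = 0.6, adjusted 0.7), which was 0.01 without BCAS mouse 1 and -0.18 without BCAS mouse 3. Outside the cluster, Miat to Meg3 was 0.132 to 0.156 in sham and 0.115 to 0.120 in BCAS mice, which did not overlap (log2 difference -0.27, exact permutation p = 0.1, adjusted 0.175). Snhg11 to Meg3 overlapped (log2 difference -0.06, exact permutation p = 0.6, adjusted 0.7). Its difference ran from -0.13 without sham mouse 1 to -0.01 without BCAS mouse 1. None of the 7 ratios could reach an adjusted p under 0.05 in this design.

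**Figure D3:**
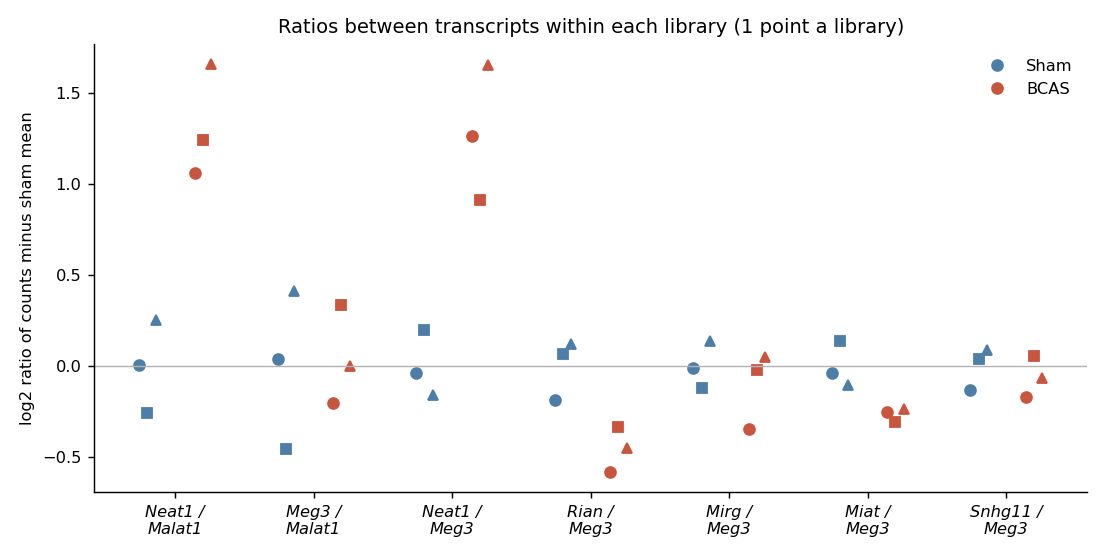
Log2 ratio of the counts of a pair of members in each library, less the sham mean of that ratio (vertical axis), with 1 point per library, blue for sham and red for BCAS. The BCAS points of Neat1 to Malat1 and Neat1 to Meg3 are above all sham points, and those of Rian to Meg3 and Miat to Meg3 are below them.

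Members were also set beside the neuron markers, most of which were down-regulated in BCAS mice. Of 16 neuron markers 12 were called down and 0 up, beside 13.2% and 18.0% of all tested genes. The count up was also 0 at an unadjusted P under 0.05, with DESeq2 and with limma-voom. Their median log2 fold change was -0.59, with all 16 below 0. The summed level of these markers was 13179 to 13908 CPM in sham and 7168 to 10313 CPM in BCAS libraries. The number called down was 6 without sham mouse 1 or sham mouse 2, 7 without sham mouse 3, 8 without BCAS mouse 1 and 16 without BCAS mouse 2. Against the mean log2 CPM of these markers in the same library, Meg3 was 0.59 higher in BCAS than in sham mice, Snhg11 0.53 higher and Mirg 0.49 higher, with no overlap between the groups. Rian was 0.14 higher, Miat 0.33 and Malat1 0.55, and these groups overlapped. The value of Rian was 0.06 without sham mouse 2 and 0.08 with the median of the markers, that of Malat1 was 0.32 without sham mouse 3, and that of Mirg was 0.32 without sham mouse 2. Neat1 was 1.87 higher, with no overlap. Against the microglia and macrophage markers every member was lower in BCAS mice, with no overlap. Those log2 differences ran from -1.90 for Neat1 to -3.63 for Rian. As the neuron markers fell, an unchanged gene would also be higher against them. As the microglia and macrophage markers rose, an unchanged gene would be lower against those. The share of all tested genes without overlap on these scales was not computed. These relative values are descriptions without a test.

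The Dlk1-Dio3 domain with its flanks, which includes Meg3, Rian and Mirg, held 2 called genes of 11 tested, both down and 0 up, beside 13.2% and 18.0% of all tested genes (0 up also at an unadjusted P under 0.05, with DESeq2 and with limma-voom): Rian, and Wars, a tRNA synthetase gene outside the imprinted region, with a log2 fold change of -0.30 (SE 0.08, adjusted P = 0.0161 with edgeR). The call for Wars was lost without sham mouse 1, sham mouse 3 or BCAS mouse 1 (adjusted P = 0.0563, 0.0663 and 0.0537). Begain, which encodes a postsynaptic protein, had the next smallest adjusted P, 0.0522, with a log2 difference of -0.40. The paternally read Dlk1, Rtl1 and Dio3 did not pass the test, with log2 differences of -0.42, 0.13 and -0.45 at mean sham levels of 13.3, 3.43 and 7.76 CPM. Strand was ignored in the counting, so these values could include reads from the opposite strand. The median of the list was -0.20 (-0.34 without sham mouse 2, -0.37 without BCAS mouse 2, -0.13 with plain library totals). The number called down was 0 without sham mouse 1, sham mouse 3 or BCAS mouse 1, 1 without BCAS mouse 3 and 4 without BCAS mouse 2. Meg3 ends 32.2 kb before Rian begins, and Rian ends 68.0 kb before Mirg.

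**Figure D4:**
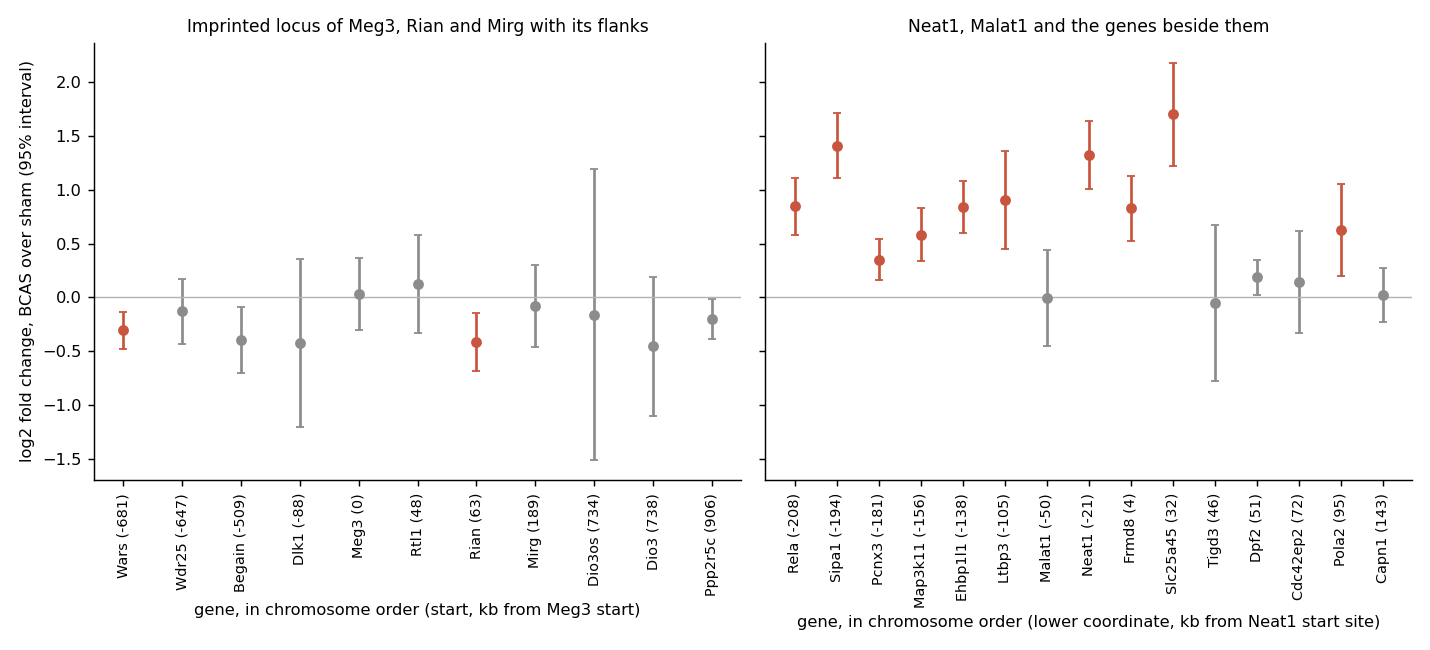
Log2 fold change of BCAS over sham with its 95% interval (vertical axis) for genes in chromosome order around Meg3 (left) and around Neat1 and Malat1 (right), with distances in kb in parentheses, 1 tested neighbour that did not pass left out on the right, and red for an adjusted P under 0.05. On the left only Wars and Rian are red, both below 0, and on the right Neat1 and 9 of its neighbours are red, all above 0, while Malat1 lies at -0.01.

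Around Neat1 and Malat1, 9 of 14 tested neighbours were called up and 0 down, beside 18.0% and 13.2% of all tested genes, with a median log2 fold change of 0.61. The count down was also 0 at an unadjusted P under 0.05, with DESeq2 and with limma-voom. Slc25a45, a mitochondrial carrier gene beyond Frmd8, and Sipa1, a Rap GTPase activator, were DEGs, with log2 fold changes of 1.70 (SE 0.21) and 1.41 (SE 0.13). Sipa1 went from 18.4 ± 0.371 to 48.7 ± 9.29 CPM (SD, n = 3), and Slc25a45 from 4.50 to 14.7 CPM. Ehbp1l1 had a log2 fold change of 0.84 (adjusted P = 6.43e-04 with edgeR) and Frmd8, the gene on the list closest to the start of Neat1, 0.83 (adjusted P = 0.00225). The number called up was 8 or 9 with each mouse left out.

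Proteins that build paraspeckles on Neat1 RNA showed no common direction at the mRNA level. Of 31 tested, 3 were called up and 4 down, beside 18.0% and 13.2% of all tested genes, none a DEG, with a median log2 fold change of -0.004, which turned to 0.07 with plain library totals. Hnrnpf was the smallest in adjusted P, up by 0.55 (SE 0.10, adjusted P = 0.00309 with edgeR), followed by Ss18l1, down by -0.47, and Matr3, down by -0.41. Among the core proteins of the structure, Pspc1 was called down at -0.34 (adjusted P = 0.0313), a call kept without sham mouse 1 or BCAS mouse 2 and lost without any other mouse (adjusted P = 0.0566 to 0.108), whereas Sfpq and Nono had log2 differences of 0.03 and -0.06 and did not pass. The number called down was 6 without BCAS mouse 2 and 2 without sham mouse 3, and the number called up was 1 without sham mouse 2 or sham mouse 3.

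Of 28 tested genes on the nuclear speckle protein list, 6 were called up and 1 down, beside 18.0% and 13.2% of all tested genes. None was a DEG, and the median was 0.07. With plain library totals 8 were called up and the median was 0.15. The smallest adjusted P values were those of Clk1, a kinase of splicing factors, up by 0.42 (SE 0.08, adjusted P = 0.00556 with edgeR), Celf3, down by -0.39, and Qk, an RNA-binding protein of glia, up by 0.55. The summed level of the list was 4452 to 4644 CPM in sham and 4739 to 5006 CPM in BCAS libraries. The number called up was 3 without sham mouse 2, sham mouse 3, BCAS mouse 1 or BCAS mouse 3. The number called down was 2 without BCAS mouse 2.

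Other imprinted genes, read from elsewhere in the genome, had 11 of 37 called down and 3 up, beside 13.2% and 18.0% of all tested genes. Their median log2 fold change was -0.21. Plain library totals gave 8 called down and a median of -0.13. When every gene with at least 1 count was tested, 5 were called up. Rasgrf1, a neuronal exchange factor for Ras, was down by -0.78 (SE 0.09, adjusted P = 4.53e-04 with edgeR) and Inpp5f by -0.45. Igf2, a growth factor of vessels and meninges, was the only DEG, up by 1.40 from 1.61 to 4.25 CPM, and its call was lost without sham mouse 1 or sham mouse 3 (adjusted P = 0.0544 and 0.0523 with edgeR). The list held 4 DEGs without BCAS mouse 2 and 2 when every gene with at least 1 count was tested. The number called down was 6 without sham mouse 1 and 7 without sham mouse 3, and the number called up was 1 without sham mouse 1 or sham mouse 3 and 6 without BCAS mouse 2.

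The other snoRNA host genes gave a background for Snhg11: of 16 tested, which include it, 1 was called down and 0 up with edgeR, beside 13.2% and 18.0% of all tested genes, with a median of 0.07 (0.15 with plain library totals, which called 1 up, 0.04 without BCAS mouse 2 and 0.01 when every gene with at least 1 count was tested). At an unadjusted P under 0.05 the count up was 1, and with DESeq2 and limma-voom it was 0. The gene called down was Snhg14, itself imprinted, at -0.36 (SE 0.09, adjusted P = 0.0199), and next came Snhg17 and Snhg12, with log2 differences of 0.33 and 0.31 that did not pass. Without sham mouse 1 no gene of this list was called (Snhg14, adjusted P = 0.0755 with edgeR). Of 31 tested long noncoding RNAs known in brain, 7 were called down and 3 up, beside 13.2% and 18.0% of all tested genes and 4.40% and 5.56% of long noncoding RNA genes, with a median of -0.06 that became 0.01 with plain library totals and 0.02 when every gene with at least 1 count was tested. Bc1, a dendritic RNA, was the only DEG, up by 1.24, from 1.21 to 2.87 CPM, a call lost without sham mouse 2, sham mouse 3, BCAS mouse 2 or BCAS mouse 3 (adjusted P = 0.0890 to 0.149 with edgeR). The list held 2 DEGs up and 1 down without BCAS mouse 1, 1 DEG, down, without sham mouse 3, and 2 DEGs up when every gene with at least 1 count was tested. Pantr1 and Tunar were down by -0.81 and -0.72 without reaching the fold of a DEG. The number called down in this list was 3 without sham mouse 2 or sham mouse 3, 4 without BCAS mouse 1 and 11 without BCAS mouse 2, and the number called up was 0 without sham mouse 2 and 1 without sham mouse 3 or BCAS mouse 3.

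**Figure D5:**
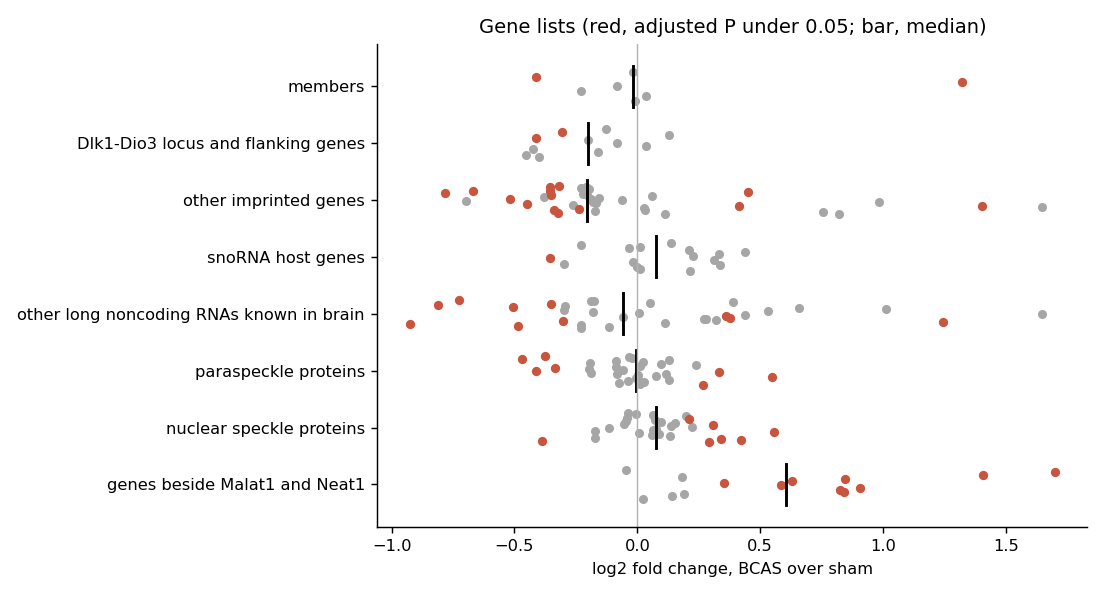
Log2 fold change of BCAS over sham (horizontal axis) for each tested gene of 8 lists, red where the adjusted P was under 0.05, with black bars for list medians. The medians run from -0.21 for other imprinted genes to 0.61 for the genes beside Malat1 and Neat1, and the members spread from Rian at -0.41 to Neat1 at 1.32.

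Among the 5 genes most like Neat1 across the 6 libraries, by Pearson correlation of log2 CPM over 10718 genes with a mean of at least 10 CPM, were Cpne3 (r = 0.999), Gtf3c4 (0.999), Ptpn13 (0.998) and Stard8 (0.998). These 4 were called up, with log2 fold changes from 0.35 for Gtf3c4 to 1.09 for Cpne3, so that the likeness includes the difference between groups and shares library depth. Those most like Meg3 were Zmat1 (r = 0.979), Eps8 (0.979), Dusp19 (0.967), Abcc5 (0.957) and Srrt (0.954), with log2 differences between -0.05 and 0.02 that did not pass the test. These are among the highest of many values over few libraries and are given as a description.

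The exons of the members overlap other annotated genes in part. Reads in bases shared by more than 1 gene were left uncounted and strand was ignored. The shared part of the exons was 32.1% for Miat, mostly with the antisense gene Gm26953, 13.8% for Malat1, 8.29% for Meg3, 5.03% for Mirg, 3.42% for Rian, 1.85% for Neat1 and 1.56% for Snhg11. The overlapping genes had at most 31 counts in a library, for Gm23600, a snoRNA gene within Rian, and Gm26953 had at most 10. How many reads of the members were lost in the shared bases is not known from the counts.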

How the data were processed

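RNA-seq libraries of 3 sham and 3 BCAS mice were grouped by their labels. The deposited values are raw read counts per gene: per the study's methods, the authors trimmed reads with Trim Galore, aligned them to mm10 with HISAT2 and counted them with featureCounts. The submitters' processing notes name version 1.6.3 and the file headers 2.0.3. Per the headers, mates were counted separately, strand was ignored and reads with several alignments or genes were left out. Inside the BCAS tables the columns carry other numbers than the labels, and label numbers are used here.

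Genes passing filterByExpr were scaled by TMM factors, and groups were tested by the quasi-likelihood method of edgeR (edgeR 4.0.16, R 4.3.3), group as the only term, with Benjamini-Hochberg adjustment over 18617 genes. log2 CPM used a prior count of 2. A count of 0 would allow up to 3 counts, 0.0874 to 0.0994 CPM, for counting error only. The steps were tested on simulated data. Each library is taken here as 1 mouse, as the study describes its replicates as biological, and P values cover only the spread between these libraries. Alternatives were DESeq2 1.42.0, limma-voom (limma 3.58.1), RLE factors, library totals, totals without members and mitochondrial genes, other filters, no fold threshold, a replicate block and each mouse left out. For values relative to neuron markers, the median of the markers replaced their mean.

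The members and gene lists were chosen with earlier results of these data known. Named were the members, in each list the DEGs or, with fewer than 3, the genes of smallest adjusted P up to 3, the 5 genes most like Meg3 and Neat1, and genes overlapping a member. Dlk1, Rtl1, Dio3, Pspc1, Sfpq, Nono and Frmd8 were named in addition, after their values were seen. Cell type marker lists are given as counts and sums. Those of CA1 pyramidal cells, dentate granule cells, interneurons and blood cells are not reported here. List symbols without a match were left out, and some single-gene results are not reported here.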

Additional observations from a re-analysis of the deposited data

How the results depend on the processing

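Neat1 stayed a DEG under every alternative listed above, at log2 fold changes of 1.22 to 1.45. Rian kept its call under the alternatives that used all 6 libraries except the replicate block, where its log2 fold change was -0.42 with an adjusted P of 0.0822 (edgeR), and it ranged from -0.52 to -0.33 with each mouse left out. The replicate numbers did not pair the libraries, since the residuals of libraries with the same number correlated at 0.036, -0.314 and -0.158, and the replicate block gave 4532 called genes and 1595 DEGs. The main analysis gave 5819 called genes and 1762 DEGs. Leaving out 1 mouse gave 3782 to 6646 called genes, lowest without sham mouse 3, and 1306 to 1976 DEGs, and dropping the fold threshold gave 5819. Meg3, Mirg, Malat1, Miat and Snhg11 stayed uncalled, and the sign of their small differences turned for Malat1 (0.06) and Snhg11 (0.05) with plain library totals and, at 0.05 and 0.04, with totals without the members and mitochondrial genes. With 1 mouse left out, the signs also varied for Meg3 (-0.07 to 0.15), Mirg (-0.24 to 0.01), Malat1 (-0.22 to 0.11) and Snhg11 (-0.13 to 0.07), while Miat ran from -0.30 to -0.14, the latter without sham mouse 1. The cause of these shifts was not tested. The smallest count of a member in a library was 266.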
